A study of Homo sapiens with 71 samples.

Results

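Lysosome enzyme and proton pump genes encode the hydrolases that digest material inside lysosomes and the vacuolar ATPase that acidifies them. They were taken as 47 named symbols, all of which had an entry in the count table, and 41 of them averaged at least 1 CPM (counts per 1e6 counts of a library) in the control libraries. All 41 passed the filter on low counts, among 6916 features tested and 31012 entries in all. HepG2, a human hepatoma line, was seeded from pooled flasks, precultured for 72 hours and then kept for 48 hours in medium made with water from 1 of 16 Great Lakes tributary sites, filtered at 0.7 µm and making up 75% of the medium. Control dishes received the same medium made with purified water, and no other agent or genotype set the groups apart. Each site, named by its 4-letter code (BRWI, CRMI, CROH, FRWI, GRMI, GRNY, IHIN, JRMI, LRMN, MAWI, MIWI, MROH, ORNY, RRMI, SRMI and VROH), had 4 dishes, or 3 at MIWI. Of the 16 control dishes in the growth protocol, 8 libraries were used here. All dishes came from a single seeding of a tumour line, so p values measure the spread between dishes, and in such bulk RNA fewer cells expressing a gene and less RNA per cell cannot be told apart.

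Lysosomal enzymes reach their compartment through the secretory route, many of them by the mannose 6-phosphate tag, and work at acid pH. The acid is pumped by the vacuolar ATPase, whose cytosolic V1 sector splits ATP and turns a rotor that drives protons through the membrane V0 sector. Many genes of both kinds are known targets of the transcription factors TFEB and TFE3, which bind an E-box motif known as CLEAR. In hepatocytes lysosomes digest glycogen, lipid droplets and lipoprotein cholesterol. TempO-Seq reads ligated probe pairs, so a count depends on the probe as well as on the transcript, and levels are compared below between libraries and never between genes.

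Library totals were 2.91 to 9.89 M (1e6) counts in 60 site libraries and 8.18 to 14.5 M in the 8 controls. VROH 2, with 8840 counts, CRMI 1 and SRMI 3 stood apart from the other libraries of their sites: 1866, 297 and 63 of 2207 features were at least 3 log2 units lower there, among them 22, 3 and 2 of 22 members compared. They were left out, 68 libraries were fitted, and results with all 71 are given beside. HepG2 identity genes were present (11 of 11 at 1 CPM or more, summing to 134000 to 221000 CPM at sites and 137000 to 193000 CPM in controls). Of 7 macrophage markers 3 reached 1 CPM in controls (CD68, CD14 and LYZ, summing with the rest to 729 to 3860 CPM at sites and 1470 to 2060 CPM in controls) and 2 were at 0 counts. Of 5 fibroblast markers 0 reached 1 CPM, and of 3 endothelial markers 2 did, at sums of 0.922 to 4.28 CPM at sites and 1.85 to 3.74 CPM in controls. The part of these markers in the results was not tested.

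At the mean of the 16 sites the lysosomal genes lay close to the controls. Their levels did differ between sites: NPC1, which exports cholesterol from lysosomes, averaged between 233 CPM (ORNY) and 408 CPM (CROH), against 322 CPM in controls, and ATP6V1C1, the C subunit of the V1 sector, ran in the opposite order. The cathepsins CTSL, CTSA and CTSC and the glycogen-digesting enzyme GAA also differed between sites. The membrane proteins LAMP1, LAMP2, CD63 and MCOLN1 and the precursors GRN and PSAP were called at 0 sites and not between sites. Against the controls, 13 of 656 gene and site pairs were called at an adjusted p under 0.05, 1.98% of the pairs, against 4.09% of the pairs of all features.

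At the mean of sites 0 of 41 genes were called by edgeR and 0 by DESeq2, with 0.174% and 0.246% of all features called. With edgeR, 1 gene (2.44%) had an unadjusted p under 0.05, against 4.86% of all features. The median log2 change of the 41 was 0.00, against -0.01 over all features. The 95% confidence intervals of 36 of the 41 lay within 0.5 log2 units of 0, and those of 22 within 0.25. LGMN, a protease that cuts after asparagine, was the gene with an unadjusted p under 0.05. It averaged 9.23 CPM over the sites, against 10.6 ± 1.45 CPM (SD, n = 8) in controls, a log2 value of -0.21 ± 0.09 (SE, unadjusted p = 0.0191, adjusted p = 0.788), with values below 0 at 16 of 16 sites. The sites share these 8 controls, so a common sign is no separate evidence. MCOLN1, a calcium channel of the lysosomal membrane, had the highest value, 0.27 ± 0.18, at a level of 2.60 CPM over the sites and 2.08 ± 0.797 CPM in controls, above 0 at 14 of 16 sites. GLA, an alpha-galactosidase, had the lowest, -0.24, and NAGLU, which trims heparan sulfate, was below 0 at 15 of 16 sites.

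**Figure D1:**
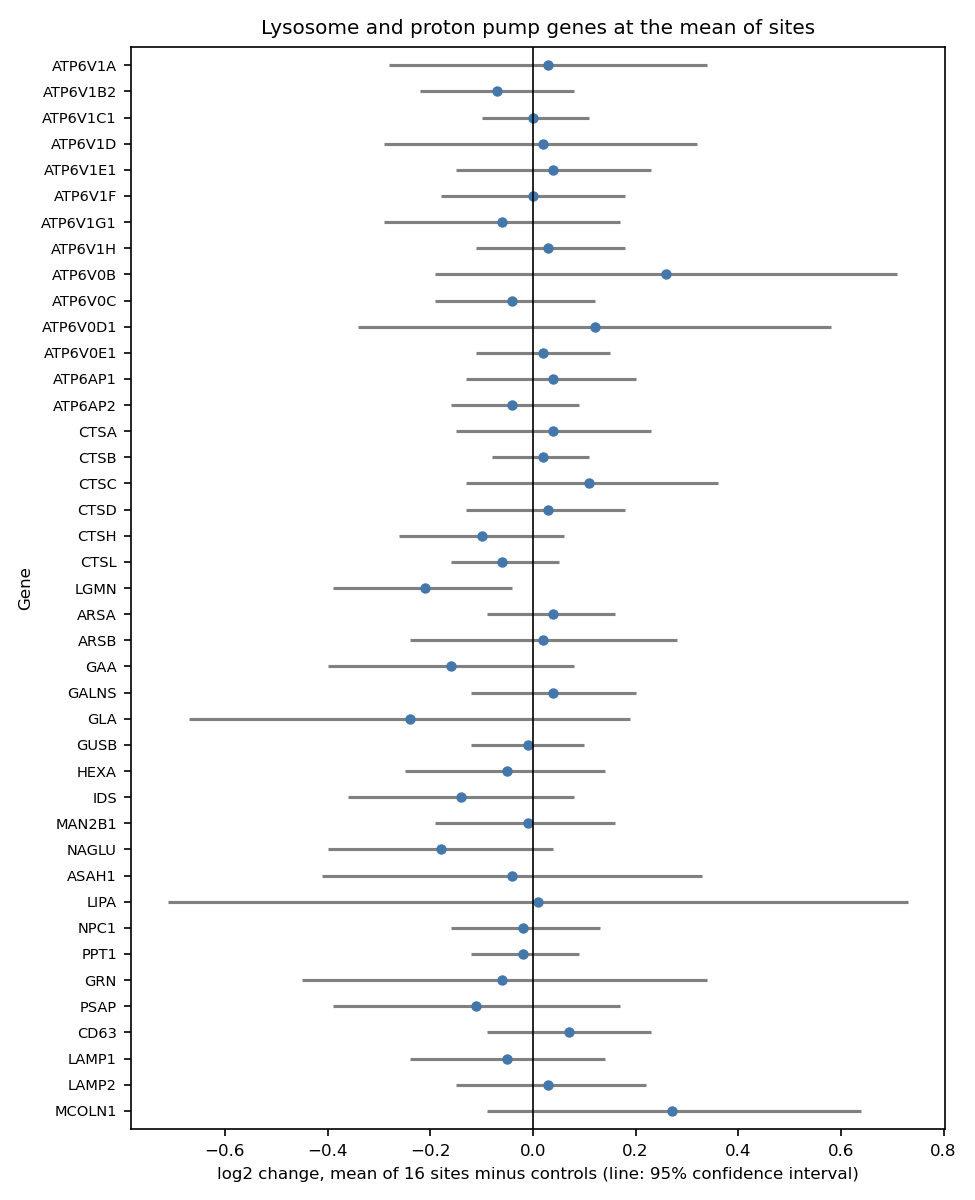
Log2 change at the mean of 16 sites minus controls (horizontal axis) for each of 41 lysosomal genes (vertical axis, ordered by role); points are fitted values over 68 libraries and lines 95% confidence intervals. Apart from the line of LGMN, which ends at -0.04, all lines cross 0, and the widest is that of LIPA (-0.71 to 0.73).

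Between the sites, edgeR's F test over the 16 site means called 19 of 41 genes (46.3%), with 49.8% of all features called, so the share was near the background. DESeq2 called 20 of the 41, with 52.9% of all features with an adjusted p from DESeq2 called. With all 71 libraries edgeR still called 11 of the 19 (29.8% of all features), and leaving out any 1 library left 16 to 20. By role, 3 of 8 V1 subunits, 3 of 4 V0 subunits, 1 of 2 pump accessory proteins, 5 of 7 proteases, 4 of 10 glycosidases and sulfatases, 3 of 4 lipid enzymes and sterol transporters, 0 of 2 precursors and 0 of 4 membrane proteins were called. Among the genes not called, 11 of 22 had a control mean of 50 CPM or more, as did 11 of the 19 called.

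**Figure D2:**
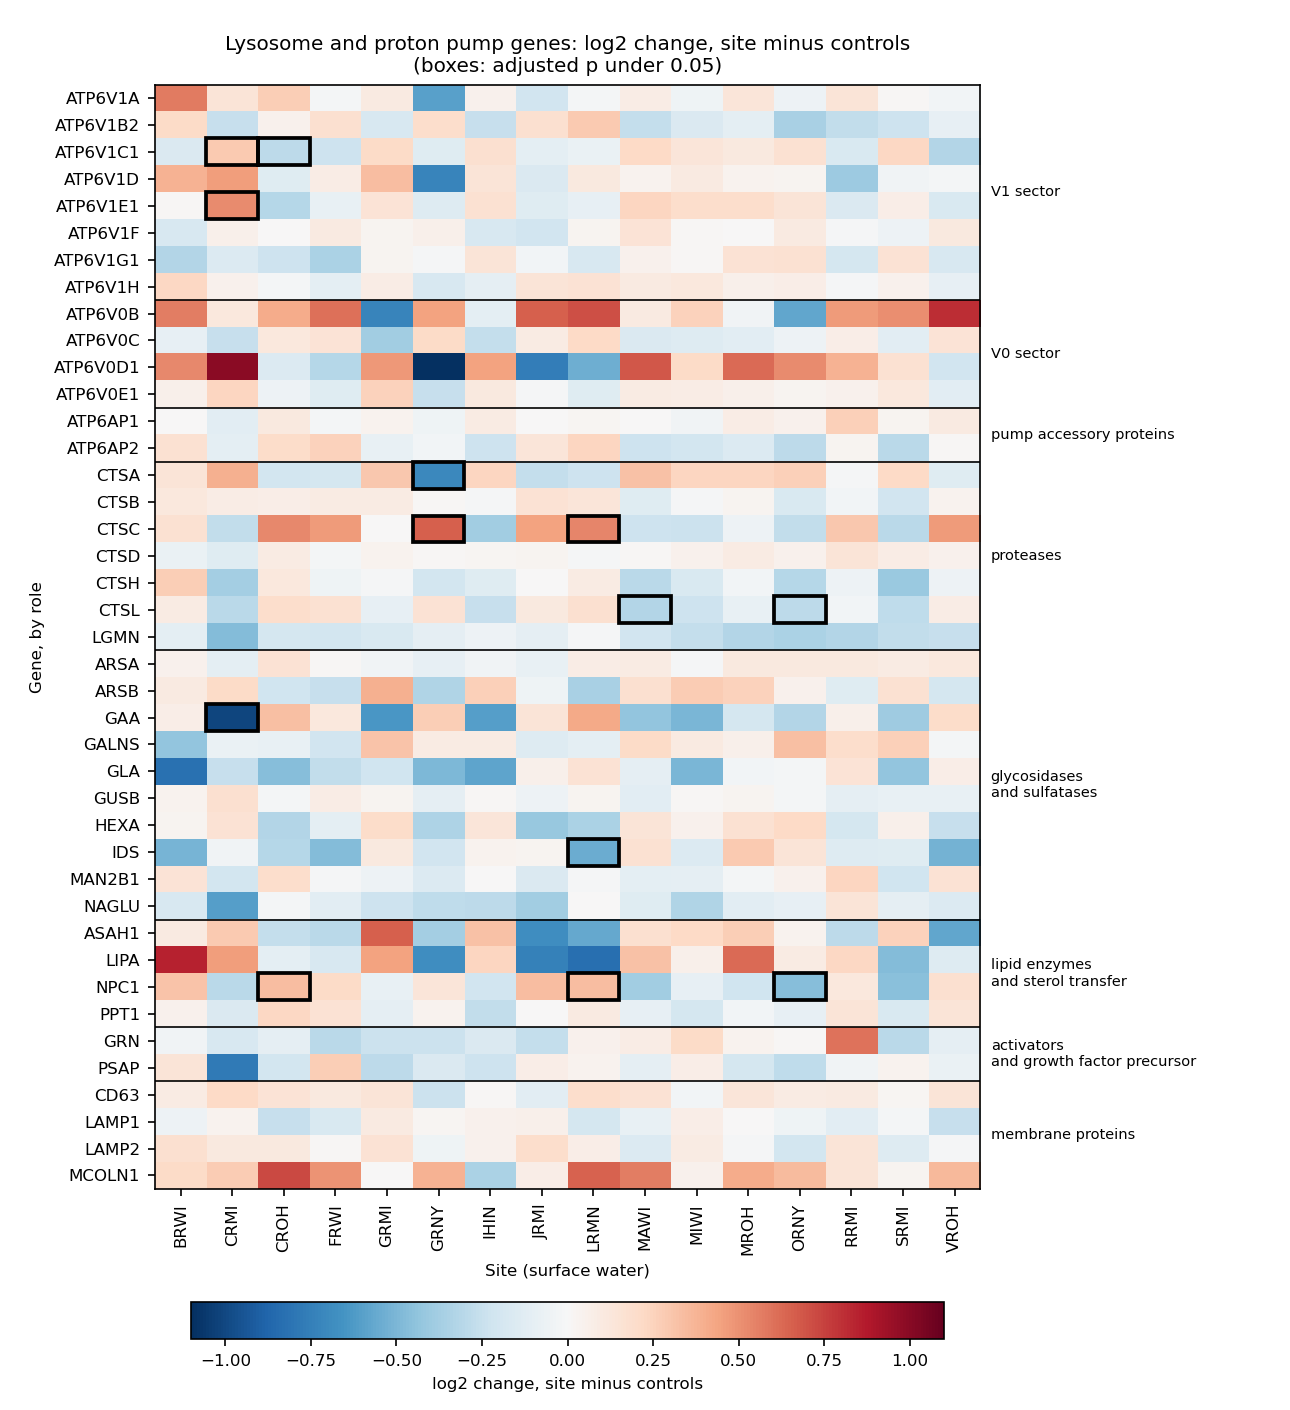
Fitted log2 change, site minus controls (colour, from blue for lower to red for higher, saturating at 1.1 log2 units), of 41 lysosomal genes (rows, grouped by role) at 16 sites (columns); boxes mark adjusted p under 0.05. The 13 boxes fall on 8 genes and 6 sites, and the membrane proteins and precursors at the bottom hold none.

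The core of the CLEAR motif, CACGTG, was searched in the promoters of these genes, and 6 of the 10 that hold it are printed. They are 4 of genes called between sites (GAA, CTSA, ATP6V0D1 and GALNS) and 2 of genes not called (CTSD and LAMP1). The others, those of ATP6V1G1, ATP6V0B, CD63 and MCOLN1, are all of genes not called between sites. The printed choice thus does not show how the motif divides between called and uncalled genes. RefSeq promoter sequences (GRCh38.p14, 250 bases before to 50 after the gene start, 5′ to 3′ on the gene's strand) were matched for 28 of the 41 genes. Capitals mark CACGTG, which reads the same on both strands.
GAA (chr17:80101331-80101630, plus strand): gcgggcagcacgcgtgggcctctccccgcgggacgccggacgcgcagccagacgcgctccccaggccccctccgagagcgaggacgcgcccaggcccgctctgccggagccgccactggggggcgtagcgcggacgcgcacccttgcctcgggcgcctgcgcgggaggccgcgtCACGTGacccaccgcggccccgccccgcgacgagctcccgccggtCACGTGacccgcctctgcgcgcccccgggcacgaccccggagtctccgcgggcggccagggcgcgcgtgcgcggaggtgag
CTSA (chr20:45891085-45891384, plus strand): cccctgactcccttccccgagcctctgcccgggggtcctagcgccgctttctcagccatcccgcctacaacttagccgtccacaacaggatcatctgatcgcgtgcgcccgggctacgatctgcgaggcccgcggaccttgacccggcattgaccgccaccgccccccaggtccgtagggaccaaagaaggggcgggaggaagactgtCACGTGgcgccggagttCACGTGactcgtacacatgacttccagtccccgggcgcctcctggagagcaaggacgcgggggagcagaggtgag
ATP6V0D1 (chr16:67481108-67481407, minus strand): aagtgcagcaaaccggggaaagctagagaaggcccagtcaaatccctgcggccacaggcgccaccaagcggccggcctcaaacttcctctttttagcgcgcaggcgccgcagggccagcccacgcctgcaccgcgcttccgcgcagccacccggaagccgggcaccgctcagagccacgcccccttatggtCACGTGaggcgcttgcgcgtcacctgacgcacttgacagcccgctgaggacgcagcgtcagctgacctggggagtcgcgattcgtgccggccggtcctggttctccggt
GALNS (chr16:88856898-88857197, minus strand): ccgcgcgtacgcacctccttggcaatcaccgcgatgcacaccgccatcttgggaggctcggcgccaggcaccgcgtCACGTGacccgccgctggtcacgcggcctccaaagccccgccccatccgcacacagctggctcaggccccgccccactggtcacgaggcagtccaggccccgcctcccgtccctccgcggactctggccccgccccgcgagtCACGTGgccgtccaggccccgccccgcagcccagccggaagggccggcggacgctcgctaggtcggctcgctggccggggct
CTSD (chr11:1763878-1764177, minus strand): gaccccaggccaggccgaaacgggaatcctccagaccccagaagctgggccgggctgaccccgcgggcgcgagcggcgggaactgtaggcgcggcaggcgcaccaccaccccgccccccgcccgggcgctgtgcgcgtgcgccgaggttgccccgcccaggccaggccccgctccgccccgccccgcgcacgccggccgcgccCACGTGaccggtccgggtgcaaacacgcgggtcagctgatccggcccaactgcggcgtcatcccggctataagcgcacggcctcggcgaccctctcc
LAMP1 (chr13:113296989-113297288, plus strand): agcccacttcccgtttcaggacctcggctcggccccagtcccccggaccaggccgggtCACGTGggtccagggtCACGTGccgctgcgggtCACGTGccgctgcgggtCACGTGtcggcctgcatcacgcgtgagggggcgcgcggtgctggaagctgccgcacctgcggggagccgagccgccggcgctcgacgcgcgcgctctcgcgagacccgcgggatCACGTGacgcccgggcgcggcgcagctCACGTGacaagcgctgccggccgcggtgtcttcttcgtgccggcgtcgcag

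CACGTG stood in 10 of the 28 windows (35.7%), against 8.34% of 22199 protein-coding promoters of the same length, and was not in the other 18. Many lysosomal genes are known targets through this motif, so the higher share is no result of these data. LAMP1 has 6 copies of CACGTG, the most among these windows. TCACNCCAC, the sterol regulatory element known as a site of SREBP factors, was searched on both strands and found in 0 of 28, against 1.13%. The windows of NPC1, CTSL and CTSC hold no CACGTG in these letters. Of the printed genes, LAMP1 with 6 copies and CTSD with 1 were not called between sites. GAA, CTSA and GALNS with 2 each and ATP6V0D1 with 1 were called. A match of letters is a description and not a binding site.

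Among the V1 subunits, ATP6V1C1 (F = 8.12, adjusted p = 3.98e-08, and 0.00138 with all 71 libraries) had a ratio of 1.52 between its highest and lowest site. It had 360, 357 and 341 CPM at CRMI, against a lowest of 272, a median of 287 and a highest of 324 CPM in controls. At CROH it had 244, 239, 237 and 226 CPM, against the same controls. All 3 CRMI libraries lay above every control and all 4 CROH libraries below every control. It rose at CRMI (log2 0.29 ± 0.09 SE, adjusted p = 0.04) and fell at CROH (-0.29 ± 0.09, adjusted p = 0.0225), with 8.01% and 10.3% of all features called at these sites. VROH, with 251, 250 and 195 CPM, was also below every control and did not pass (-0.32, adjusted p = 0.153). The CRMI call was lost without any 1 of CRMI 2, CRMI 3, CRMI 4 or CTRL 5 (log2 0.27 to 0.31, adjusted p 0.0548 to 0.154), and the CROH call without CROH 2, CROH 3 or CROH 4 (-0.28 to -0.26, adjusted p 0.0584 to 0.0802). With all 71 libraries neither passed (adjusted p = 0.08 at CRMI and 0.398 at CROH); CRMI 1, left out above, had 533 CPM.

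ATP6V1E1, a subunit of the V1 stalk that resists rotation, rose at CRMI. It had 121, 122 and 147 CPM there, against 73.2 to 102 CPM (median 91.7) in controls, and no CRMI library overlapped them. The log2 change was 0.52 ± 0.17 (adjusted p = 0.0451). The call did not survive omission of any 1 of CRMI 2, CRMI 3, CRMI 4, CTRL 1, CTRL 2, CTRL 5, CTRL 6 or CTRL 7 (log2 0.42 to 0.57, adjusted p 0.0505 to 0.271), and was 0.0618 with all 71 libraries. Its F of 2.38 between sites (adjusted p = 0.0229) was not called without CRMI 4 (1.90, adjusted p = 0.0827). ATP6V1B2, the B subunit that shares in nucleotide binding, differed between sites (F = 4.46, adjusted p = 1e-04). It had 42.2, 43.0, 44.1 and 44.8 CPM at ORNY, against 46.3 to 66.6 CPM (median 55.3) in controls. Every ORNY library was below the controls, yet the site's log2 value of -0.36 missed the threshold (adjusted p = 0.0776). LRMN was its highest site, with 74.7, 65.4, 62.3 and 71.9 CPM, some of them within the control range. The catalytic subunit ATP6V1A had 53.0, 76.6, 48.6 and 43.2 CPM at BRWI, its highest site, and 34.9, 7.71, 14.0 and 41.3 CPM at GRNY, its lowest, against 24.5 to 43.9 CPM (median 38.1) in controls. GRNY 2 and GRNY 3 lay below every control, and the F test did not call the gene (F = 1.24, adjusted p = 0.361). ATP6V1D, ATP6V1F, ATP6V1G1 and ATP6V1H were not called between sites (F of 0.803 to 1.81).

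In the V0 sector, ATP6V0D1, whose protein joins the rotor to the proton ring, had a ratio of 4.27 between its highest and lowest site (F = 3.11, adjusted p = 0.0032). It had 50, 71.2 and 110 CPM at CRMI and 24.5, 3.95, 6.06 and 37.7 CPM at GRNY, against 15.3 to 53.9 CPM (median 41.9) in controls. GRNY 2 and GRNY 3 were far below every control while the other GRNY libraries lay among them. Neither site passed (log2 0.99 ± 0.39, adjusted p = 0.104 at CRMI, and -1.11 ± 0.40, adjusted p = 0.0627 at GRNY), and with all 71 libraries the F test did not call the gene (adjusted p = 0.127). ATP6V0C, the proteolipid of the proton ring (F = 2.81, adjusted p = 0.00723), had 34.0, 39.8, 46.0 and 40.7 CPM at LRMN and 25.3, 33.2, 28.8 and 18.8 CPM at GRMI, against 31.7 to 40.4 CPM (median 34.2) in controls. Both sites overlapped the controls. ATP6V0E1, a small membrane subunit (F = 2.29, adjusted p = 0.029), was not called without CRMI 4 (F = 2.07, adjusted p = 0.0545), without GRMI 4 (2.02, 0.0591) or with all 71 libraries (0.891). ATP6V0B, at 1.14 CPM in controls, was just above the level required for use and was not called (F = 1.56). Of the accessory proteins, ATP6AP2, also known as the prorenin receptor, differed between sites (F = 5.10, adjusted p = 2.12e-05, and 0.0962 with all 71 libraries). It had 307, 299, 285 and 317 CPM at FRWI and 206, 182 and 229 CPM at SRMI, against 207 to 305 CPM (median 255) in controls, which both sites overlapped. ATP6AP1, an assembly factor of the pump, had 83.8, 90.2, 76.4 and 98.2 CPM at RRMI, its highest site, and 60.8, 65.8 and 73.7 CPM at CRMI, its lowest, against 63.1 to 80.9 CPM (median 71.2) in controls. Its F of 0.586 was among the lowest of the 41, and the groups overlapped.

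The proteases (the cathepsins and LGMN) held 5 of the 13 calls against the controls, all of them on cathepsins. These were 2 higher and 3 lower among 112 protease pairs, a share near the 4.09% of pairs of all features called. CTSL, a cysteine endopeptidase, had 73.0, 61.7, 77.6 and 80.4 CPM at MAWI and 66.7, 82.9, 73.6 and 75.0 CPM at ORNY, against 85.5 to 97.5 CPM (median 90.0) in controls. All 8 of these site libraries lay below every control. CTSL fell at MAWI (log2 -0.32 ± 0.09, adjusted p = 0.0254, with 4.71% of all features called) and at ORNY (-0.29 ± 0.09, adjusted p = 0.04, with 4.09% called). Its highest site, CROH, had 95.8, 106, 112 and 103 CPM and did not pass (0.19, adjusted p = 0.142). The MAWI call was lost without MAWI 1 (-0.32, adjusted p = 0.0904) or MAWI 2 (-0.25, 0.108), and the ORNY call without ORNY 1, ORNY 3, CTRL 1, CTRL 4 or CTRL 7 (-0.30 to -0.24, adjusted p 0.0515 to 0.263). Between sites CTSL had an F of 7.11 (adjusted p = 2.71e-07, and 0.00749 with all 71 libraries), called whichever library was left out, whereas with all 71 libraries neither site passed (adjusted p = 0.326 at MAWI and 0.421 at ORNY).

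CTSA, a carboxypeptidase that also protects lysosomal beta-galactosidase and neuraminidase, gave the call that held best when single libraries were removed. It had 446, 241, 306 and 167 CPM at GRNY, against 339 to 556 CPM (median 493) in controls. GRNY 1 lay within the control range and the other 3 GRNY libraries below it. CTSA fell at GRNY by 0.71 ± 0.16 on the log2 scale (adjusted p = 0.00518, with 9.17% of all features called), and the call held without any 1 GRNY or control library (adjusted p up to 0.0475). With all 71 libraries the log2 value was -0.72 and the adjusted p 0.353. At CRMI it had 602, 601 and 665 CPM, above every control, and did not pass (0.39, adjusted p = 0.133). The F of 5.27 between sites (adjusted p = 1.42e-05) did not pass with all 71 libraries (0.986, adjusted p = 0.661).

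CTSC, also called dipeptidyl peptidase I, had 15.5, 20.7, 22.4 and 17.2 CPM at GRNY and 16.8, 16.8, 16.7 and 19.6 CPM at LRMN, against 8.31 to 17.1 CPM (median 11.5) in controls. Part of each site's libraries fell within the control range. It rose at GRNY (log2 0.66 ± 0.19, adjusted p = 0.0255) and at LRMN (0.54 ± 0.20, adjusted p = 0.0462, with 17.6% of all features called). The GRNY call was lost without GRNY 2, GRNY 3 or CTRL 2 (0.56 to 0.62, adjusted p 0.0572 to 0.0867). The LRMN call was lost without any 1 of the 4 LRMN libraries or of CTRL 2, CTRL 4, CTRL 5, CTRL 6, CTRL 7 and CTRL 8 (0.48 to 0.56, adjusted p 0.0596 to 0.123). IHIN was the lowest site, with 11.1, 7.36, 7.74 and 10.5 CPM, and overlapped the controls. Between sites the F was 4.47 (adjusted p = 9.66e-05, and 0.00244 with all 71 libraries). CTSB, a cysteine protease, was among the steadiest members from dish to dish and differed between sites by a ratio of 1.29 (F = 2.57, adjusted p = 0.0137, and 0.989 with all 71 libraries). It had 4730, 4590, 4670 and 5010 CPM at JRMI and 3770, 3480 and 3840 CPM at SRMI, against 3740 to 4750 CPM (median 4320) in controls, overlapping at both sites. CTSD, the main aspartic protease of lysosomes, had the lowest F of all 41 genes (0.354, adjusted p = 0.99). It had 156, 162, 140 and 167 CPM at RRMI, its highest site, and 131, 133 and 124 CPM at CRMI, its lowest, against 128 to 156 CPM (median 139) in controls, and the groups overlapped. CTSH differed between sites (F = 2.69, adjusted p = 0.00995) and, with all 71 libraries only, was called at CRMI (log2 -0.65, adjusted p = 0.0339).

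Among the glycosidases and sulfatases, GAA, the acid alpha-glucosidase that digests glycogen, gave the largest called change of any member at a site. It had 34.9, 37.3 and 26.9 CPM at CRMI, against 53.5 to 82.0 CPM (median 64.5) in controls. All CRMI libraries lay below every control. GAA fell at CRMI by 1.01 ± 0.24 on the log2 scale (adjusted p = 0.00716). The call held with all 71 libraries (-0.88, adjusted p = 0.0206) and was lost without CRMI 4 (-0.88, adjusted p = 0.0884). It was also lost with the replicate number as a block, as described below (-0.86, adjusted p = 0.0544). At LRMN, its highest site, it had 78.0, 138, 69.8 and 69.2 CPM, with LRMN 2 alone above the controls. Between sites the F was 5.42 (adjusted p = 1.01e-05, and 0.000199 with all 71 libraries), called without any 1 library. Over the 60 site libraries its log2 level ran with the log2 of total counts at r = 0.42, and that of GALNS at 0.44; the part of depth in these results was not tested.

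IDS, which removes sulfate from iduronate in heparan and dermatan sulfate, had 12.3, 9.63, 11.3 and 16.4 CPM at LRMN, against 15.7 to 21.9 CPM (median 17.5) in controls. LRMN 4 alone fell within the control range. IDS fell at LRMN (log2 -0.55 ± 0.19, adjusted p = 0.0372, and 0.0892 with all 71 libraries), and the call was lost without LRMN 1, LRMN 2, LRMN 3, CTRL 2 or CTRL 5 (-0.56 to -0.46, adjusted p 0.0599 to 0.163). MROH was its highest site, with 24.9, 22.2, 23.1 and 18.9 CPM, partly above the controls, and the F over sites was 2.91 (adjusted p = 0.0055). GALNS, a sulfatase of keratan sulfate, had 51.1, 47.7, 41.6 and 32.5 CPM at ORNY and 28.5, 18.6, 24.9 and 29.8 CPM at BRWI, against 30.0 to 38.1 CPM (median 34.8) in controls. The BRWI libraries lay below every control and the ORNY libraries overlapped them, and neither site passed (adjusted p = 0.117 at BRWI and 0.137 at ORNY), while the F of 3.34 did (adjusted p = 0.00176). HEXA, the alpha subunit of beta-hexosaminidase A, differed between sites with 68 libraries (F = 2.78, adjusted p = 0.00779) and not with 71 (0.494). ARSA, ARSB, GLA, GUSB, MAN2B1 and NAGLU were not called (F of 0.692 to 1.87). GLB1, the lysosomal beta-galactosidase, had 0 counts in all 71 libraries; over the 80.6 M counts of the controls this allows up to 0.0372 CPM, which covers counting error only and bears on the probe as much as on the gene. CTSZ, CLN3, NPC2, ATP6V0A1 and IDUA were also below 1 CPM in controls, at 0.116 to 0.615 CPM, and were not used.

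NPC1 (chromosome 18, 23506184 to 23586898 in GENCODE release 29 on GRCh38, minus strand) had the largest F of the 41 genes, 8.57 (adjusted p = 1.74e-08, and 0.00226 with all 71 libraries), and the F was called whichever library was left out. It had 397, 483, 281 and 472 CPM at CROH, 458, 327, 368 and 472 CPM at LRMN and 206, 253, 196 and 279 CPM at ORNY, against 254 to 355 CPM (median 330) in controls. Every one of these sites overlapped the controls, CROH by CROH 3 and LRMN by LRMN 2. NPC1 rose at CROH (log2 0.34 ± 0.12, adjusted p = 0.0496) and LRMN (0.34 ± 0.12, adjusted p = 0.0376) and fell at ORNY (-0.47 ± 0.12, adjusted p = 0.0165). The CROH call was lost without CROH 2, CROH 4, CTRL 5 or CTRL 8 (0.27 to 0.35, adjusted p 0.0535 to 0.17), the LRMN call without LRMN 1, LRMN 4, CTRL 5, CTRL 6 or CTRL 8 (0.26 to 0.32, adjusted p 0.0512 to 0.156) and the ORNY call without ORNY 1 (-0.41, adjusted p = 0.138) or ORNY 3 (-0.39, 0.171). None of the 3 passed with all 71 libraries (adjusted p 0.381 to 0.447). SRMI 3, left out above, had 76.1 CPM.

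**Figure D3:**
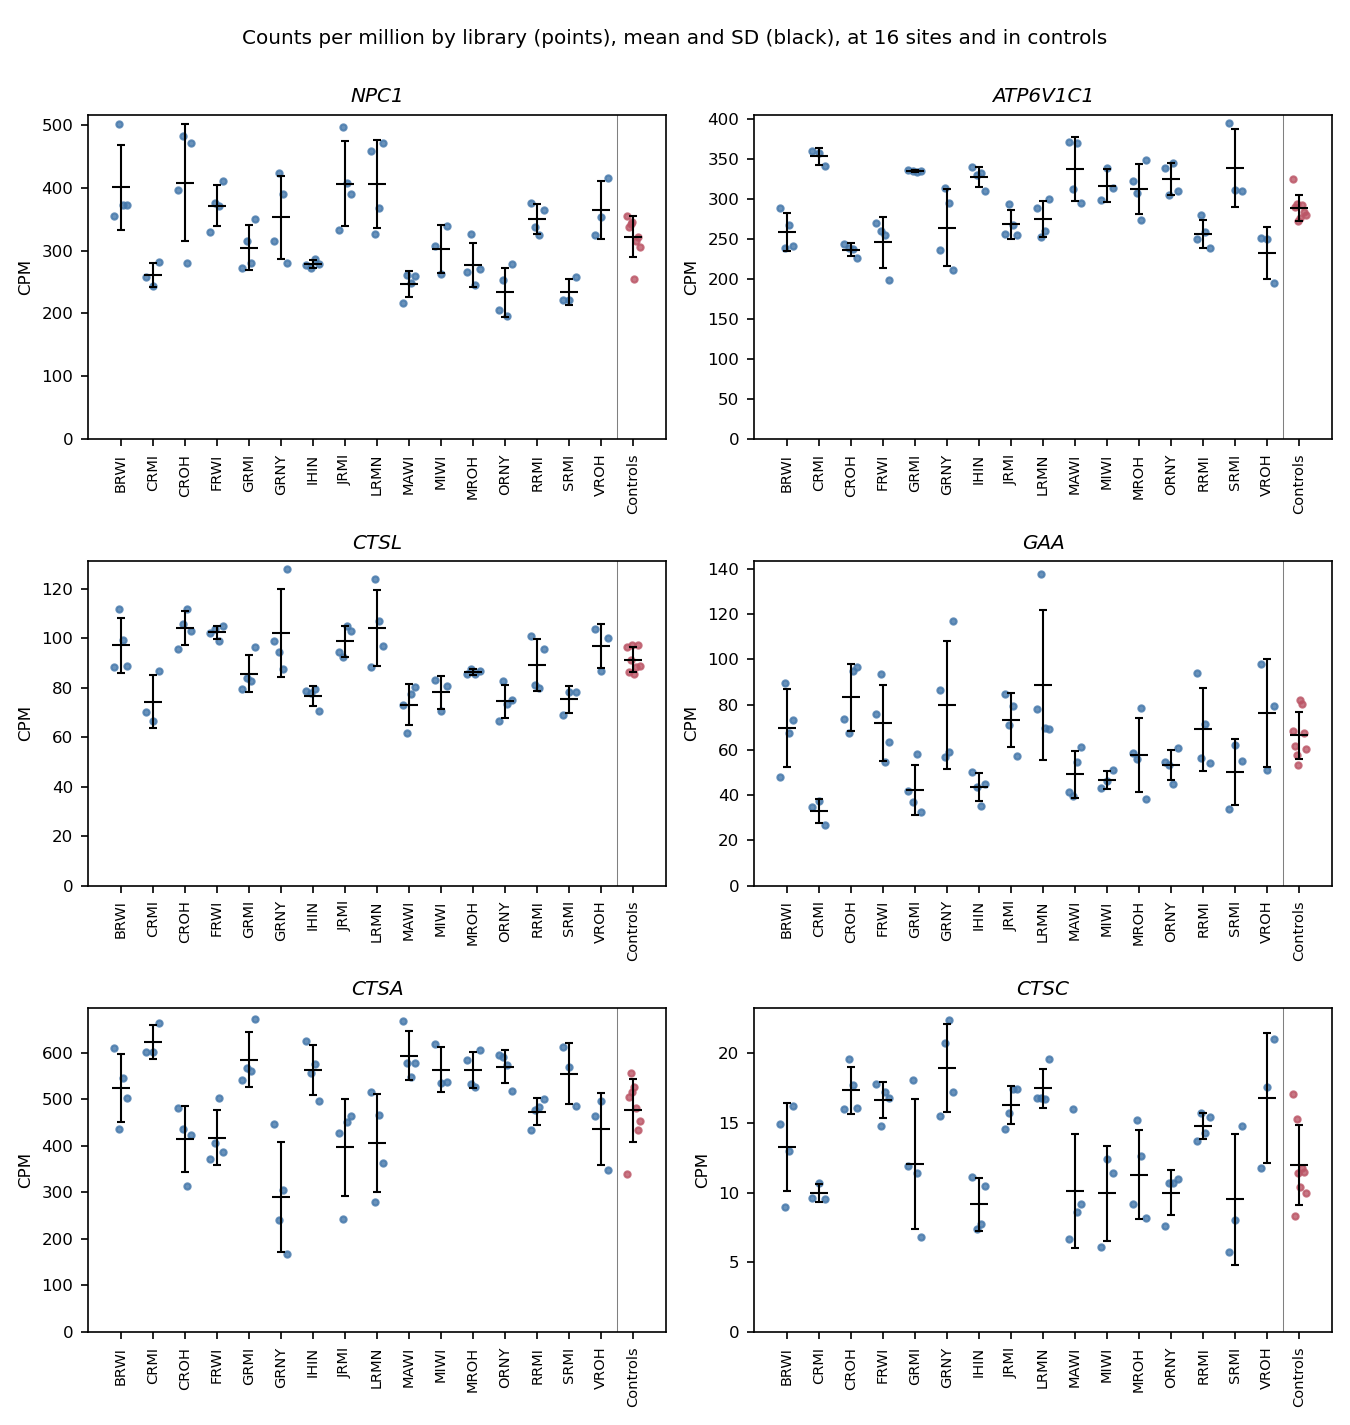
CPM (vertical axes, from 0) of 6 lysosomal genes in each library (points) at 16 sites and, at the right, in the 8 controls; black bars are the mean and SD. NPC1 was lowest at ORNY (233 CPM) and SRMI (234 CPM), where ATP6V1C1 was at 324 and 338 CPM, and CTSA was lowest at GRNY (290 CPM).

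PPT1, which strips palmitate from proteins, differed between sites (F = 4.19, adjusted p = 0.000191, and 0.324 with all 71 libraries). It had 167, 169, 178 and 183 CPM at CROH and 136, 120, 116 and 122 CPM at IHIN, against 133 to 171 CPM (median 150) in controls. Each site overlapped the controls in part, and neither passed (adjusted p = 0.061 at CROH and 0.0942 at IHIN). ASAH1, the acid ceramidase, stood at the threshold (F = 2.08, adjusted p = 0.05) and lost its call in 58 of the 68 omissions of 1 library (F down to 1.69, adjusted p up to 0.137). LIPA, the lysosomal acid lipase, was not called (F = 0.998). It had 152, 153, 91.6 and 108 CPM at BRWI, its highest site, and 26.3, 63.0, 63.7 and 5.32 CPM at LRMN, its lowest, against 26.5 to 114 CPM (median 73.0) in controls. In fold terms the range was wide at LRMN and in the controls and narrower at BRWI.

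For the membrane proteins and precursors the site and control values overlapped. LAMP1, a coat protein of the lysosomal membrane, had 789, 786, 640 and 925 CPM at GRMI and 635, 642 and 565 CPM at VROH, its highest and lowest sites, against 617 to 930 CPM (median 696) in controls. LAMP2, its partner, had 1950, 2880, 2340 and 2420 CPM at JRMI and 1700, 2060, 1670 and 1900 CPM at ORNY, against 1620 to 2370 CPM (median 2160) in controls. At all 4 of these site groups the libraries overlapped the controls, and neither gene was called between sites (F = 0.713 and 0.944). MCOLN1 had 4.31, 2.98, 4.49 and 2.06 CPM at CROH, its highest site, against 0.899 to 3.49 CPM (median 1.88) in controls (log2 0.73, adjusted p = 0.0918). GRN, the progranulin precursor, had 2.24, 2.39, 2.54 and 3.51 CPM at RRMI and 0.78, 1.90 and 1.24 CPM at SRMI, against 1.02 to 2.50 CPM (median 1.73) in controls, with overlap and no call (F = 0.686). At such levels, near 1 CPM, counting error is large and a change of moderate size could not be detected.

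Over all gene and site pairs the 13 calls, 6 higher and 7 lower, were read against the 4.09% of 110656 pairs of all features called. The calls fell on 8 genes at 6 sites, and at the other 10 sites 0 genes were called. At each of those 10 sites 1 to 6 genes (2.44% to 14.6%) had an unadjusted p under 0.05, against 8.04% to 20.3% of all features. Among all features the share called at these sites was 1.14% at BRWI, 2.18% at FRWI, 0.549% at GRMI, 0.549% at IHIN and 2.91% at JRMI. It was 0.0145% at MIWI, 0.0868% at MROH, 2.86% at RRMI, 1.27% at SRMI and 0.13% at VROH. DESeq2 called 1 lysosomal gene at IHIN, 1 at SRMI and 0 at the other 8. Of all features with an adjusted p from DESeq2, 4.62% were called at IHIN and 3.79% at SRMI. DESeq2 called 21 pairs in all, the 13 among them. It also called more of all features, with shares at single sites from 0.0289% (MIWI) to 18.7% (LRMN). With all 71 libraries 2 pairs were called (0.305%, against 0.883% of all features), GAA at CRMI being the 1 shared. In 23 pairs every site library lay outside the range of the controls, and 6 of these were called; over all features 5.27% of pairs had no overlap. The median log2 change of the 41 genes at a site lay between -0.10 (GRNY) and 0.09 (BRWI), and the median absolute change between 0.11 and 0.22. For 574 of the 656 pairs the 95% confidence interval lay within 1 log2 unit of 0, and for 341 within 0.5.

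Several genes called between sites split the sites alike. The 8 sites highest in NPC1 (CROH, JRMI, LRMN, BRWI, FRWI, VROH, GRNY and RRMI) were the 8 lowest in ATP6V1C1 and the 8 lowest in CTSA, and the 8 highest in GAA, CTSL, CTSC, ATP6AP2 and PPT1. ATP6V1B2 shared 7 of the 8. Across the 16 site means, NPC1 ran with CTSL (Pearson r = 0.93, Spearman 0.92) and ATP6AP2 (0.93 and 0.91) and against ATP6V1C1 (-0.86 and -0.77). Among pairs of the 19 genes, CTSL and CTSC had the highest r (0.95), then CTSA and ATP6V0D1 (0.94), and ATP6V0C and ATP6V0E1 the lowest (-0.93). These means share libraries and their scaling and are given as a description. The likeness was that of called features at large: over the 171 pairs of the 19 genes the median absolute r was 0.73 and 31.0% reached 0.8, against 0.70 and 28.7% over pairs of all features called between sites. Over the 60 site libraries the genes of this split ran with total counts at r of -0.22 (ATP6V1C1) to 0.42 (GAA). NPC1 was at -0.09 and CTSC at 0.27, and the part of depth in the split was not tested.

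Some members also varied widely from dish to dish within groups. LIPA had a within-group SD of 1.09 on the log2(CPM + 1) scale, at the 99.4th percentile of all tested features, and ATP6V0D1 0.67, ASAH1 0.49, ATP6V1A 0.46 and ATP6V1D 0.44 followed. The median over the 41 genes was 0.25, against 0.28 over all tested features, and 5 of the 41 exceeded 0.4. At GRNY, LIPA had 39.1, 2.44, 4.95 and 129 CPM, against 26.5 to 114 CPM in controls. The same 2 libraries, GRNY 2 and GRNY 3, were low for ATP6V0D1 and ATP6V1A in the values above, and ASAH1 had 7.21, 2.63, 4.20 and 22.6 CPM there. LIPA was next lowest in JRMI 2 (5.23 CPM), LRMN 4 (5.32 CPM) and FRWI 1 (11.1 CPM), and the lowest control was CTRL 1 (26.5 CPM). Over the 68 libraries the deviations of LIPA from its group means ran with those of ATP6V0D1 (r = 0.94), ATP6V1A (0.83), ATP6V1D (0.79), CD63 (0.79), ASAH1 (0.77), CTSH (0.75) and HEXA (0.69), and against those of ATP6V1G1 (-0.69) and ATP6V1C1 (-0.61). The other members had r of -0.54 (LAMP1) to 0.52 (MAN2B1). The values of r over all tested features are not given here, so these have no background. GRNY 2, JRMI 2, LRMN 4 and FRWI 1 were also the fitted libraries in which at least 10 features lay 3 log2 units or more below their group. GRNY 4 had 2 such features but the largest SD of log2 differences from its group (0.815, then JRMI 2 at 0.784). It was also the lowest GRNY library in CTSA (167 CPM). The cause of this spread was not tested. Without GRNY 2, JRMI 2, LRMN 4 and FRWI 1, an omission chosen after seeing the data, 15 pairs were called, 10 of the 13 among them. Between sites 19 genes were called, 17 of them as before. The shares of all features called without these libraries are not given here.

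**Figure D4:**
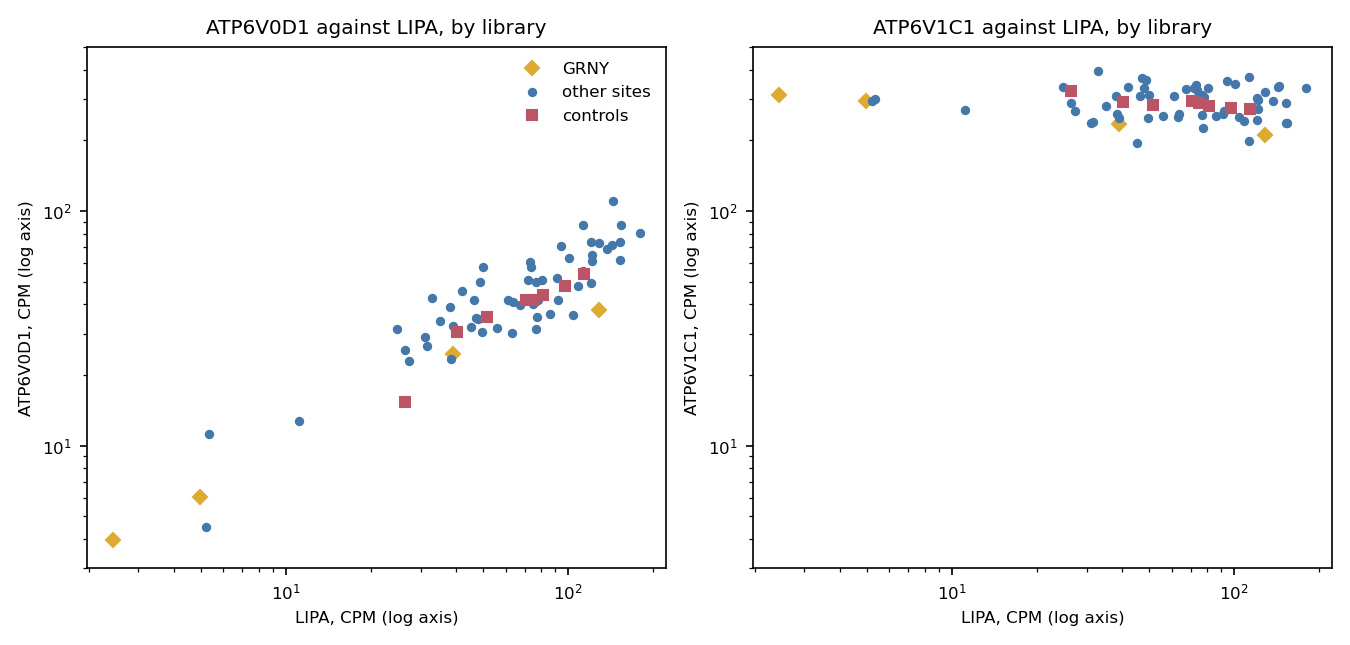
CPM of ATP6V0D1 (left) and ATP6V1C1 (right) against LIPA in each of 68 libraries, on log axes; diamonds are GRNY, circles the other sites and squares the controls. ATP6V0D1 runs with LIPA over its whole range down to GRNY 2 (3.95 and 2.44 CPM), while ATP6V1C1 stays between 195 and 395 CPM.

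Genes outside the 47 that work with lysosomes were counted from lists of known function, to be read against the 49.8% of all features called between sites and the 4.09% of pairs called. Of 6 other proton pump subunits tested, 3 (50%) differed between sites, and ATP6V0A2 alone was called at a site, higher at LRMN (32.0 ± 1.42 CPM, n = 4, against 22.1 ± 3.28 CPM in controls, n = 8; log2 0.53, adjusted p = 0.00806, and 0.0834 with all 71 libraries). Of 41 other lysosome genes 18 (43.9%) differed between sites, with 11 pairs higher and 12 lower (3.51% of pairs); IFI30, a thiol reductase, was called at 5 sites, of which CRMI still passed with all 71 libraries (adjusted p = 0.0413). IFI30 had 48.3 ± 3.85 CPM at CRMI (n = 3) and 23.1 ± 2.12 CPM at LRMN (n = 4), against 32.5 ± 4.45 CPM in controls. Of 21 genes of sorting to the lysosome 6 (28.6%) differed, with 5 pairs higher and 3 lower (2.38%), and AP1S3, a clathrin adaptor subunit, rose at CRMI, MAWI, MROH and ORNY (15.0 to 17.3 CPM, against 9.51 ± 1.85 CPM in controls). The MROH call of AP1S3 was lost with all 71 libraries (adjusted p = 0.416) and the other 3 passed.

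Of 31 autophagy genes 16 (51.6%) differed between sites, with 12 pairs higher and 12 lower (4.84%), shares near those of all features. OPTN, a receptor that brings cargo to autophagosomes, was called at 8 sites. It rose at CROH, GRNY, JRMI and LRMN (1030 to 1230 CPM) and fell at CRMI, MAWI, ORNY and SRMI (438 to 533 CPM), against 774 ± 111 CPM in controls. With all 71 libraries 3 of these calls passed, at LRMN, MAWI and SRMI (adjusted p 0.0191 to 0.0274). ATG4D, a protease that processes ATG8 proteins, was called at 4 sites, higher at CROH, GRNY and LRMN and lower at CRMI; with all 71 libraries CROH alone passed (adjusted p = 0.0358). Of 20 genes of lysosome signalling 9 (45%) differed, with 8 pairs higher and 5 lower (4.06%), again near the shares of all features. FNIP2, a partner of folliculin in nutrient sensing, rose at CROH, GRNY and LRMN (32.2 to 41.0 CPM) and fell at MAWI (13.4 ± 4.92 CPM), against 22.4 ± 4.28 CPM in controls. The GRNY and MAWI calls of FNIP2 were lost with all 71 libraries (adjusted p = 0.22 at GRNY and 0.0731 at MAWI). In all 5 lists 0 genes were called at the mean of sites, where the median log2 changes were -0.03 to 0.03.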

How the data were processed

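TempO-Seq libraries of HepG2 cells were compared between 16 water sites and controls. The deposited values are expected counts, that is, read counts per gene as the authors estimated them, with Salmon and the build GRCh38 per the submitters' processing notes. Of the normalization, the Salmon version and the probe positions, details were not given in the sources used here. Per the values, 1 read was worth 0.993 to 1 in each library, and in the median library 93.4% of low values (under 20) were whole multiples of it to within 0.02 (lowest 91.6%), so the values were rounded and used as counts. The table is held up to the symbol RAI14, and later symbols were not analysed here. MIWI and GRMI libraries carry the numbers of the table's columns, which differ from those of the labels.

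Counts were fitted with edgeR 4.0.16 (R 4.3.3; quasi-likelihood, TMM scaling, filterByExpr with a minimum count of 10) over 68 libraries with a mean for each of 17 groups (51 residual degrees of freedom, common coefficient of variation 0.199). The contrasts were each site minus controls, the unweighted site mean minus controls and an F test among site means. Benjamini-Hochberg adjustment ran over all tested features of a contrast, an adjusted p under 0.05 is a call, and the contrasts are two-sided. CPM are counts scaled by TMM-adjusted totals; errors are SD over libraries or SE of fitted log2 changes. Leaving VROH 2, CRMI 1 and SRMI 3 out departs from a fit of all 71 libraries, which is given as an alternative. Others were DESeq2 1.42.0, RLE size factors, no filter, a replicate block, leaving out single libraries and, chosen after seeing the data, leaving out 4 more libraries. The script was tested on simulated data. No 2 libraries were copies of each other (lowest chi-square 4.58 per degree of freedom). Named genes were the 12 with the smallest F test p, those called, and 12 fixed ones. Members and lists were chosen with earlier results of these data known. Positions are from GENCODE release 29 and promoters from RefSeq (GRCh38.p14). A gene result is withheld and is not reported here.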

Additional observations from a re-analysis of the deposited data

Results flagged for a closer look

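In 5 of 49 groups of 4 to 8 libraries a library lay far from the others by Dixon's ratio, which chance flags in about 1 of 20 groups. These were ATP6V0C in CTRL 4 (40.4 CPM, above the other controls), ATP6V1A in CTRL 1 (24.5 CPM, below them), ATP6V1C1 in CTRL 1 (324 CPM, above them), CTSC in LRMN 4 (19.6 CPM, above the other LRMN libraries) and GAA in LRMN 2 (138 CPM, above them). CTRL 1 was also the control lowest in LIPA.

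The F test over the site means, a test of the difference itself, passed for 19 genes. The F values were 8.57 for NPC1, 8.12 for ATP6V1C1, 7.11 for CTSL, 5.42 for GAA, 5.27 for CTSA, 5.10 for ATP6AP2, 4.47 for CTSC, 4.46 for ATP6V1B2, 4.19 for PPT1 and 3.34 for GALNS. They were 3.11 for ATP6V0D1, 2.91 for IDS, 2.81 for ATP6V0C, 2.78 for HEXA, 2.69 for CTSH, 2.57 for CTSB, 2.38 for ATP6V1E1, 2.29 for ATP6V0E1 and 2.08 for ASAH1.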

How the results depend on the processing

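Against 13 pairs called, all 71 libraries gave 2 calls (1 of the 13 kept), DESeq2 21 (13 kept) and RLE size factors 13 (13 kept). The replicate block, whose site contrasts rest on 4 controls (below), gave 7 (4 kept), and leaving out 1 control gave 10 to 14. With all 71 libraries 0 genes were called at CROH, GRNY, LRMN, MAWI and ORNY, and 11 between sites. With no filter on low counts 12276 features were tested and 9 pairs called, 1 each at CROH, GRNY and LRMN and 2 at MAWI. DESeq2 called 4 genes at CROH, 4 at GRNY, 2 at MAWI, 1 at IHIN and 1 at SRMI. Its shares of all features with an adjusted p were, in that order, 13.5%, 13.1%, 7.89%, 4.62% and 3.79%. Without FRWI 1, GRNY 2, JRMI 2 and LRMN 4, 5 genes were called at CRMI, 1 at GRNY, 1 at LRMN, 2 at MAWI and 1 at SRMI. Without 1 library the counts were 1 to 3 at CRMI, 0 to 4 at CROH, 1 to 6 at GRNY, 0 to 3 at LRMN, 0 to 2 at MAWI, 0 to 5 at ORNY, 0 to 1 at RRMI and at SRMI, and 16 to 20 between sites. For RLE size factors, no filter, the block and the omissions, shares of all features called are not given here. Changes in those counts therefore cannot be set apart from changes over all features. The cause of these differences was not tested. No called gene changed sign under these alternatives.

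Pairing of dishes by replicate number did not show in the values. Deviations of libraries with the same number had a median correlation of 0.0434 (-0.855 to 0.882), against -0.00771 with different numbers (-0.884 to 0.924). Of 68 libraries, 7 were closest to their own number. MIWI and GRMI numbers differ between columns and labels, so this is a description of the values. With the replicate number as a block, 0 genes were called at CRMI, 1 each at CROH, GRNY, LRMN, ORNY and SRMI, and 2 at MAWI. The share of all features called with the block is not given here. Of the 19 genes called between sites 18 were kept, and GAA at CRMI was not called (-0.86, adjusted p = 0.0544). CTRL 5, CTRL 6, CTRL 7 and CTRL 8 share their numbers with no site library, so the block gave each its own term. Its site contrasts thus rested on CTRL 1, CTRL 2, CTRL 3 and CTRL 4. The part of the fewer controls in the lost calls was not tested. Genes near 1 CPM are limited by depth: ATP6V0B, GLA and GRN had control means of 1.14 to 1.72 CPM.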
